A study of Mus musculus with 2 samples.

Results

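Chemokine ligands and their receptors were examined in nuclei of mouse hearts after PBS or PD-1 inhibitor. The members were the rows of the gene table whose symbol was Ccl, Cxcl, Ccr, Cxcr or Ackr followed by a number, together with Cx3cl1, Cx3cr1, Xcl1 and Xcr1. The rule found 66 of the 32589 rows, which carried 61 symbols, and it used symbols and no measured value. Of the 66 rows, 44 were ligands and 22 were receptors. Single-nucleus RNA sequencing (snRNA-seq) was done on hearts of male C57BL/6 mice, 8 weeks old by the study's methods. The PD-1 inhibitor mice received an antibody to mouse PD-1 (InVivoPlus) at 5 mg/kg into the peritoneum on days 1 and 14 of a 28-day cycle, and the control mice were given PBS. Nuclei, libraries and values of the PD-1 inhibitor group are called treated below, and plots carry the group's own name. Each group was 1 library, and how many hearts went into a library is not given in the sources used here. With 1 library per condition there was no replicate, no test could be made, and each interval below is a 95% interval of counting error only.

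Chemokines are small secreted proteins that guide leukocytes through receptors coupled to G proteins. They are grouped as CC, CXC, CX3C and XC by the spacing of their first cysteines, and the receptors are named after the group they bind. Atypical receptors (the Ackr genes) bind chemokines without the usual G protein signal and remove or hold them. In the heart, Ccl2 and its receptor Ccr2 are known for the recruitment of monocytes, Cxcl12 for signals between vessel wall and blood cells, and Cxcl9, Cxcl10 and Cxcr3 for the entry of T cells. PD-1 is a receptor that restrains activated T cells.

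The matrices held unique molecular identifier (UMI) counts for 10197 control and 7967 treated barcodes, and 9522 and 7644 nuclei were kept, with a median of 1012 and 1055 UMIs. They formed 22 clusters, of which 21 took the name of a cell type from its marker genes, and 48 barcodes occurred in both libraries. Type names here are short for endothelial-like cells (ECs), fibroblast-like cells, mononuclear phagocyte-like cells (MPs) and so on. The control and treated libraries held 2806 and 2508 ECs, 2477 and 1970 fibroblasts, 1282 and 1087 cardiomyocytes, 1255 and 883 MPs, 239 and 193 T cells and 176 and 80 B cells. Levels are UMIs of a gene per 1000000 UMIs of the type (CPM). They were not divided by gene length, so a gene is compared only with itself between types and libraries. In a library made from a whole heart, RNA that leaked from broken cells can be counted in nuclei of any type. For scale, 6 MP markers (C1qa, C1qb, C1qc, Csf1r, Adgre1 and F13a1) stood at 2.00% and 1.60% of their MP level in ECs of the control and treated libraries, and at 1.91% and 1.50% in fibroblasts. Likewise, 6 fibroblast markers (Col1a1, Col1a2, Col3a1, Dcn, Pdgfra and Lum) stood at 4.39% and 4.02% of their fibroblast level in MPs and at 11.6% and 13.9% in ECs.

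Members gave 13054 UMIs in kept control nuclei and 12622 in kept treated nuclei, which is 1078 and 1227 CPM. Of the 66 rows, 52 had a UMI, 37 had at least 50 over both libraries, and 14 had 0. The rows at 0 were Cxcr1, Ccl20, Ccl27b, Cxcl3, Cxcl15, Ccl21c, the 3 rows of Ccl21b, both rows of Ccl27, both of Ccl19 and 1 of the 2 rows of Ccl21a. The Ccl19, Ccl21 and Ccl27 genes have near-identical copies, so reads that fit several copies may have been left uncounted or split, and their values are uncertain. The 15 members with 1 to 49 UMIs were Ackr1 (42 UMIs in kept nuclei), Ccl1 (28), Ccr9 (24), Xcr1 (24), Ccl28 (23), Cxcr2 (21), Cxcl17 (18), Ccr4 (11), Ccl26 (8), Ccl17 (8), Ccl21a, Ccl22 and Ccr3 (3 each), and Ccr8 and Ccr10 (1 each). At these counts a level in a type was not measurable. Among them, 17 of the 24 UMIs of Xcr1, the receptor that marks cross-presenting dendritic cells, lay in the dendritic cell-like cluster of MPs.

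Chemokine genes lie in tight groups on the chromosomes, and the groups did not share a cell type. On GRCm38, 14 members lay on chromosome 11 and 13 on chromosome 9. On chromosome 11, Ccl2 (chr11:82035571-82037453), Ccl7 (chr11:82045712-82047525), Ccl11 (chr11:82057823-82062955), Ccl12 (chr11:82101845-82103400) and Ccl8 (chr11:82115185-82116799) were neighbours. Of these, Ccl11 was found in fibroblasts, Ccl12 and Ccl8 in MPs, and Ccl2 and Ccl7 in both. Further along, Ccl9, Ccl6, Ccl5, Ccl3 and Ccl4 lay between positions 83525778 and 83664683. Here Ccl9 and Ccl6 were highest in MPs and the other 3 in T cells.

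For each of the 37 members with at least 50 UMIs, the type with the highest level was found among the 8 types with at least 50 nuclei per library. MPs were highest for 15 members, fibroblasts and T cells for 7 each, B cells for 4, ECs for 3 and mesothelial cells for 1. In 32 of the 37 both libraries gave the same type. The exceptions were Cxcl12, Ccl7, Cxcl13, Cxcl10 and Cxcl9. No member was highest in cardiomyocytes or mural cells when the libraries were pooled.

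**Figure D1:**
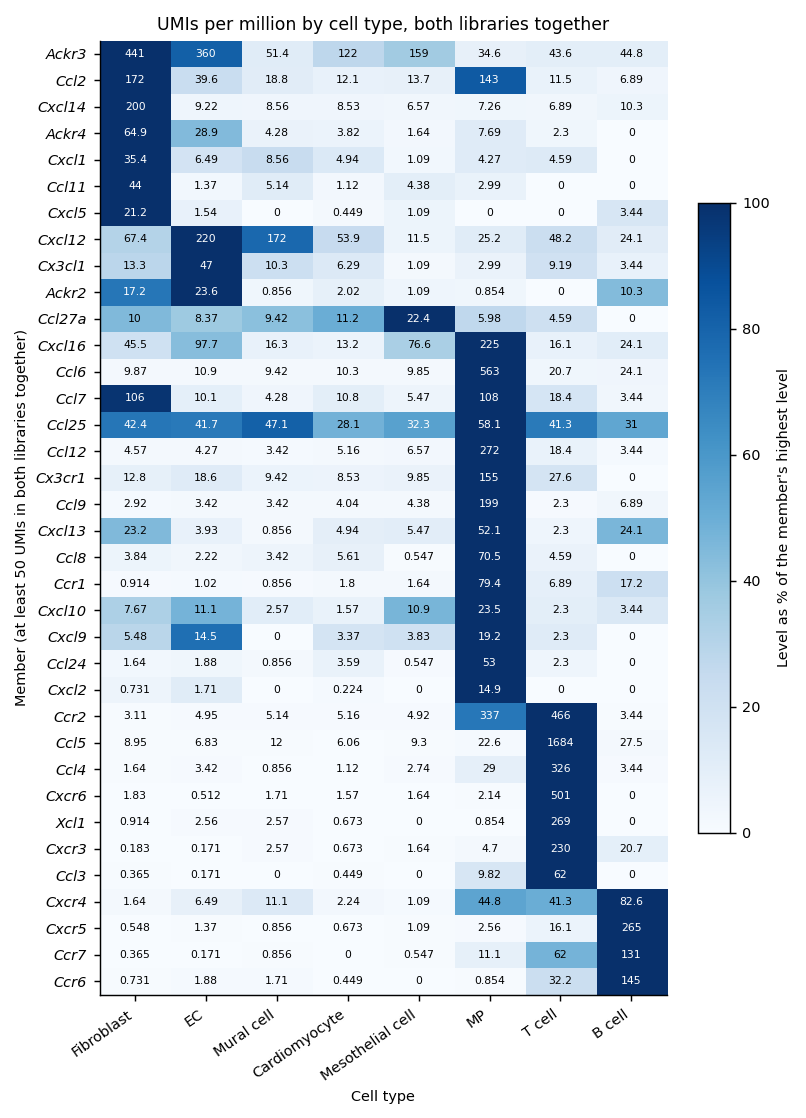
Heat map of the members described here with at least 50 UMIs (rows) in 8 cell types (columns), both libraries together. The printed value is the level in UMIs per 1000000 UMIs of the type and the colour is that level as a percentage of the row's highest. Most MP, T cell and B cell rows are dark in 1 column, whereas Ccl25 is spread over all columns and Ackr3, Cxcl12 and Cxcl16 over several.

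Among the ligands highest in MPs, Ccl6, Ccl9, Ccl12, Ccl8 and Ccl24 were mostly counted there, with 71.4% to 87.1% of the UMIs of the first 4 in MPs. Ccl6, a mouse CC chemokine of myeloid cells, was at 563 CPM in MPs over both libraries and at 9.42 to 24.1 CPM in the other 7 types. Its level in ECs was 2.13% and 1.73% of the MP level, which was close to the 2.00% and 1.60% of the MP markers there. Ccl9 and Ccl12 in ECs were also at 1.35% to 2.00% of their MP levels, and such values were read as background. Cxcl16, a transmembrane chemokine that also takes up oxidized lipoprotein, was different. Its level was 225 CPM in MPs, 97.7 in ECs, 76.6 in mesothelial cells and 45.5 in fibroblasts. In ECs that was 38.2% and 48.9% of the MP level, far above the MP markers. Ccl25, the thymic and intestinal ligand of Ccr9, lay between 28.1 and 58.1 CPM in all 8 types. Its span overlaps Elavl1, an abundant gene on the opposite strand that had 2295 UMIs, and reads of both cannot be told apart if strand was not used in counting. Ccr9 itself had 24 UMIs. The same limit holds for Cxcl10, which overlaps Art3 (4883 UMIs) on the opposite strand, for Ackr4, which overlaps Acad11 (746 UMIs), for Cx3cr1 (Wdr48, 1134 UMIs), and for Cxcl16, Cxcr6, Ccl27a and Cxcr5, which overlap Zmynd15, Fyco1, Il11ra1 and Bcl9l.

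Fibroblasts held the highest levels of Ccl2, Cxcl14, Cxcl1, Ccl11 and Cxcl5. Cxcl14 was at 200 CPM in fibroblasts, against 6.57 to 10.3 in the other types, and its 4.60% and 4.51% of the fibroblast level in ECs lay below the 11.6% and 13.9% of fibroblast markers. Ccl11 (eotaxin, which attracts eosinophils) was at 44.0 CPM in fibroblasts and Cxcl5 (a ligand of the neutrophil receptor Cxcr2) at 21.2 CPM, with 87.6% and 89.2% of their UMIs in that type. Ccl2 was shared. It was at 172 CPM in fibroblasts and 143 in MPs, where it reached 80.8% and 87.4% of the fibroblast level. Ccl7, which acts on the same receptor, was at 106 CPM in fibroblasts and 108 in MPs. The MP levels of both stood far above the 4.39% and 4.02% of fibroblast markers in MPs.

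Ccl7 was found more often in nuclei that also had Ccl2. Of 104 control fibroblasts with a Ccl2 UMI, 27.9% also had Ccl7, against 4.21% of the other fibroblasts. In the treated library the shares were 26.6% of 64 and 2.31%. The median depth was 1137 and 1036 UMIs with and without Ccl2 among control fibroblasts, and 1347 and 1082 among treated ones. Of 71 control fibroblasts with Cxcl1, 23.9% had Ccl7, against 4.66% of the others, at 1262 and 1033 UMIs. In MPs, 36.9% of the control nuclei with Ccl7 had Ccl12, against 7.23% of the others, and in the treated library these shares were 42.2% and 8.91%. Much of the Ccl2 in fibroblasts was held by few nuclei. The 5 nuclei with the most Ccl2 held 34.6% and 43.7% of all fibroblast Ccl2 UMIs in the control and treated libraries.

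ECs held the highest levels of Cxcl12, Cx3cl1 and Ackr2. Cxcl12, the ligand of Cxcr4 and Ackr3, was at 220 CPM in ECs, 172 in mural cells, 67.4 in fibroblasts and 53.9 in cardiomyocytes. Within ECs it belonged to capillaries: the capillary-like cluster stood at 692 CPM in the control library and 610 in the treated library, the arterial-like cluster at 264 and 258, and the other 4 clusters between 32.7 and 99.5. The capillary-like cluster alone held 1042 of the 2235 Cxcl12 UMIs of the data. Among mural cells, the pericyte-like cluster, which wraps capillaries, stood at 173 and 211 CPM. Cx3cl1 (fractalkine, an adhesive ligand on the endothelial surface) was at 47.0 CPM in ECs and 13.3 in fibroblasts. Ackr2, a scavenger of inflammatory CC chemokines known from lymphatic vessels, was at 199 and 258 CPM in the lymphatic-like EC cluster. The 105 UMIs there were 41.8% of its 251. Fibroblasts stood at 17.2 CPM of Ackr2 against 23.6 in ECs. Their Pi16-type cluster held 83 of the UMIs (33.1%), at 40.3 CPM over both libraries.

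T cells held the highest levels of Ccl5, Ccl4, Ccl3 and Xcl1. Ccl5, a chemokine stored by effector T cells and natural killer (NK) cells, was at 1684 CPM in T cells and at 6.06 to 27.5 in the other types. Xcl1, the ligand of Xcr1, was at 269 CPM in T cells and at most at 2.57 elsewhere. Both the T cell-like and the NK-like cluster of this type carried Ccl5, Xcl1 and Cxcr6. Ccl27a was the member highest in mesothelial cells, at 22.4 CPM against 4.59 to 11.2 in those of the 8 types with a UMI. The remaining ligands, Cxcl13, Cxcl10, Cxcl9 and Cxcl2, had 50 to 314 UMIs and were highest in MPs when the libraries were pooled. Their MP levels, and so their order of types, were carried by few nuclei. Cxcl9 had more UMIs in ECs (85 in 65 nuclei, 14.5 CPM) than in MPs (45 in 21 nuclei, 19.2 CPM). The capillary-like EC cluster held 72 of the Cxcl9 UMIs in 53 nuclei, at 45.5 CPM.

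The signalling receptors were mostly leukocyte genes. Ccr2, the receptor of Ccl2, Ccl7 and Ccl12, was at 466 CPM in T cells and 337 in MPs, and at 3.11 to 5.16 in the other 6 of the 8 types. Within MPs it was concentrated in the dendritic cell-like cluster, at 1246 and 1715 CPM in the control and treated libraries. It was at 283 and 484 CPM in the largest MP cluster, which was led by Cd72, and at 58.1 and 100.1 in the macrophage-like cluster with Lyve1 and Folr2 among its leading genes, genes of resident heart macrophages. Ccr1 and Cx3cr1 were highest in MPs, at 79.4 and 155 CPM. Cxcr6 and Cxcr3 were T cell genes, at 501 and 230 CPM there. Cxcr5, Ccr6 and Ccr7, which place lymphocytes in lymphoid tissue, were highest in B cells, at 265, 145 and 131 CPM. Cxcr4 was at 82.6 CPM in B cells, 44.8 in MPs and 41.3 in T cells, against 6.49 in ECs. The capillary-like EC cluster held 31 of its 223 UMIs, at 19.6 CPM over both libraries.

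The atypical receptors were genes of the stroma. Ackr3, which binds Cxcl12 and holds down its local level, had 5624 UMIs, the most of any member, and was at 441 CPM in fibroblasts, 360 in ECs, 159 in mesothelial cells and 122 in cardiomyocytes. Its EC level was 91.9% and 72.0% of the fibroblast level, against 11.6% and 13.9% for the fibroblast markers. Within fibroblasts, Ackr3 was at 763 and 898 CPM in the Pi16-type cluster (led by Cd248, Tmem100 and Cilp) and at 217 and 216 in the largest cluster (led by Nkain2, Fbn2 and Eya2). Within ECs, it was at 593 and 512 CPM in the lymphatic-like cluster and at 171 and 231 in the capillary-like cluster, where its ligand was highest. Ackr4, a scavenger of Ccl19, Ccl21 and Ccl25, was at 64.9 CPM in fibroblasts and 28.9 in ECs.

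Ligands and receptors were thus often highest in different types, but not for every pair. Ccl7, Ccl12 and Ccl8 were highest in MPs with the libraries pooled. MPs also held 72.9% of the UMIs of their receptor Ccr2, although its level was highest in T cells. Cxcl12 was highest in ECs and its signalling receptor Cxcr4 in B cells, whereas its atypical receptor Ackr3 was highest in fibroblasts. The B cell level of Cxcr4 rested on 24 UMIs, and MPs held 47.5% of its UMIs. Cx3cl1 was highest in ECs and Cx3cr1 in MPs. Cxcl16 was highest in MPs and its receptor Cxcr6 in T cells. Xcl1 was highest in T cells and Xcr1 in MPs. For several axes 1 side was hardly counted: Ccl11 and Ccl24 had 275 and 164 UMIs but their receptor Ccr3 had 3, Cxcl1 and Cxcl5 had 284 and 131 but Cxcr2 had 21, and Ccr7 had 96 but its ligands Ccl19 and Ccl21a had 0 and 3. Cxcr5 had 110 UMIs, and its ligand Cxcl13 had 314.

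The control and treated libraries were then compared within each type, as log2 ratios of treated over control. Members together went from 3211 to 5522 CPM in T cells and from 2563 to 3378 in MPs. They went from 1326 to 1459 CPM in fibroblasts and from 1028 to 990 in ECs. The share of nuclei with a UMI of any member went from 79.9% to 92.2% in T cells and from 73.6% to 83.7% in MPs, and after thinning each nucleus to 500 UMIs from 62.8% to 81.9% and from 58.7% to 69.6%. Median depths were 846 and 884 UMIs in T cells and 902 and 966 in MPs. In ECs these shares were 50.5% and 50.4%.

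Few members were past 2-fold, and few genes of any kind were. In fibroblasts, 17 members had at least 50 UMIs, 2 were at least 2-fold higher (Cx3cr1 and Ccl6) and 2 at least 2-fold lower (Cxcl1 and Cxcl13), against 0.831% and 0.727% of all genes. In MPs, 2 of 20 were higher (Cxcl13 and Ccl24) and 2 lower (Cxcl10 and Cxcl12), against 0.979% and 1.19%. In ECs, 1 of 14 was higher (Cx3cr1) and 1 lower (Ccl2), against 0.841% and 0.813%. In T cells, 2 of 7 were higher (Cxcr6 and Ccl5) and 0 lower, against 2.19% and 3.24%. In cardiomyocytes 0 of 6 were past 2-fold, against 1.14% higher and 1.06% lower. Each count above 0 was 1 or 2 members. The median log2 ratio of the members was 0.73 in T cells, 0.32 in fibroblasts, 0.31 in MPs and 0.00 in ECs, and that of all genes was -0.03, 0.00, -0.03 and 0.01.

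The marker genes of the types moved as well. In MPs, 17 of 20 markers had a ratio above 0, with a median of 0.40, and their sum went from 24458 to 33780 CPM, a log2 ratio of 0.47. In fibroblasts, 11 of 13 markers were above 0, with a median of 0.13 and a ratio of the sum of 0.29. In T cells the median was 0.11 and in ECs -0.03. Member ratios of about 0.4 to 0.5 in MPs, and of up to about 0.3 in fibroblasts, were of the size seen for the markers that define the type, and the part of this in the member ratios was not tested.

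**Figure D2:**
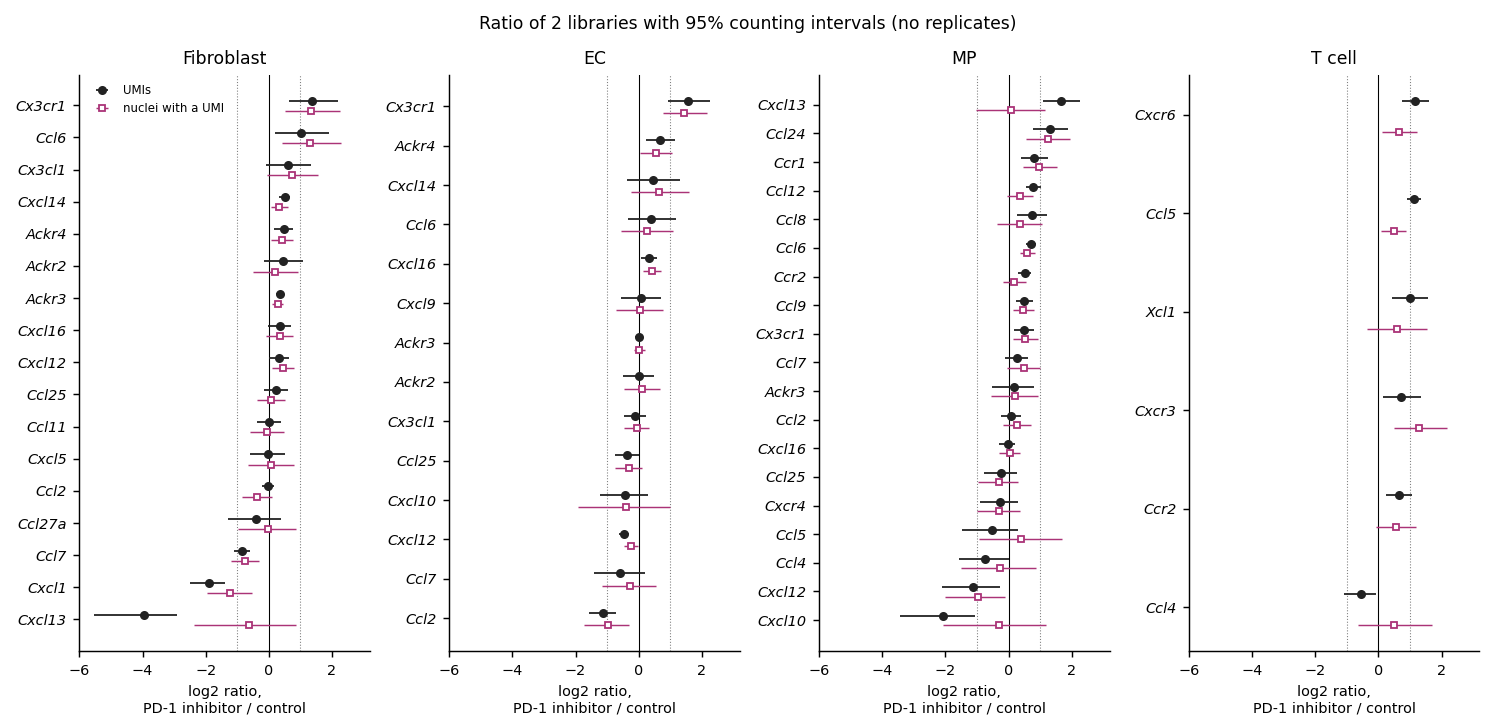
Log2 ratio of treated over control for the members described here with at least 50 UMIs in the type, by UMIs (filled circles) and by nuclei with a UMI (open squares), with 95% counting intervals. Dotted lines mark 2-fold. Cxcl13 in fibroblasts and Cxcl10 and Cxcl13 in MPs are far from 0 by UMIs and near it by nuclei, whereas Cxcl1 in fibroblasts and Cx3cr1 in ECs are far from 0 by both.

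In fibroblasts, Cxcl1 and Ccl7 were lower in the treated library. Cxcl1, a ligand of the neutrophil receptor Cxcr2, had 159 UMIs in 71 of 2477 control nuclei and 35 UMIs in 24 of 1970 treated nuclei. This was 53.2 against 14.1 CPM, a log2 ratio of -1.90 (-2.49 to -1.38), and by nuclei -1.21 (-1.97 to -0.55). The share of nuclei with Cxcl1 was 2.87% and 1.22%, and 1.82% and 0.863% after thinning. In cardiomyocytes, taken as background, 0.468% and 0.0920% of nuclei had a Cxcl1 UMI at median depths of 1405 and 1439 UMIs, against 1043 and 1088 in fibroblasts. Ccl7 had 396 UMIs in 129 nuclei and 184 in 61, a log2 ratio of -0.84 (-1.10 to -0.58). Both clusters that held these genes were lower: for Cxcl1 the ratio was -1.63 in the largest cluster and -2.14 in the Pi16-type cluster, and for Ccl7 -0.41 and -1.41.

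By UMIs, Ccl2 did not follow them in the whole type, and its clusters diverged. It had 518 control UMIs in 104 nuclei and 421 treated UMIs in 64 nuclei, a log2 ratio of -0.03 (-0.22 to 0.16). In the largest fibroblast cluster it went from 142 to 226 CPM, a ratio of 0.67 (0.42 to 0.92), and in the Pi16-type cluster from 258 to 132, a ratio of -0.96 (-1.27 to -0.66). The larger value in the first of these came with fewer nuclei, which numbered 68 of 1623 and 42 of 1141. They held 260 and 280 UMIs, so a treated nucleus with Ccl2 held more UMIs on average. How these UMIs were spread over the nuclei of this cluster is not given here. The most in a nucleus was 71 in the control and 58 in the treated library. In the Pi16-type cluster 35 of 742 and 22 of 743 nuclei had Ccl2. By share of nuclei, neither cluster was thus higher in the treated library.

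**Figure D3:**
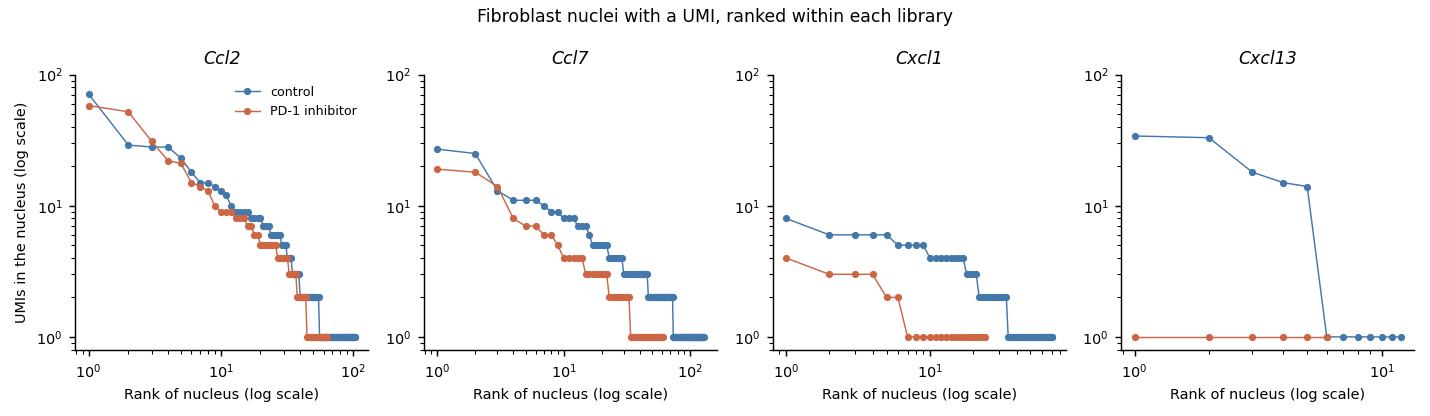
UMIs per nucleus of Ccl2, Ccl7, Cxcl1 and Cxcl13 in fibroblasts, with nuclei that had a UMI ranked from the highest within each library (both axes on a log scale). The control curves of Ccl7 and Cxcl1 lie above the treated curves at nearly all ranks and reach 129 and 71 nuclei against 61 and 24, and the control curve of Cxcl13 drops to 1 UMI after 5 nuclei.

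The promoters of Cxcl1, Cxcl10 and Cxcl13, the members lower by UMIs in fibroblasts and present in the promoter table, were chosen after their values were seen and are shown because Cxcl1 and Cxcl10 are textbook targets of the inflammatory factor NF-kB. The sequences are the 250 bases before the RefSeq start on GRCm38.p6, 5′ to 3′, at chr5:90890995-90891244 on the plus strand (Cxcl1), chr5:92348890-92349139 on the minus strand (Cxcl10) and chr5:95956689-95956938 on the plus strand (Cxcl13). Capitals mark motif matches.
Cxcl1: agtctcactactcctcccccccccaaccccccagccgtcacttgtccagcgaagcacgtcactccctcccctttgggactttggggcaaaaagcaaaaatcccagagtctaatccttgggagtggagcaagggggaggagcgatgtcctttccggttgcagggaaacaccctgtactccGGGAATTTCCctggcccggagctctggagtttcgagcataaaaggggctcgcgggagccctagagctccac
Cxcl10: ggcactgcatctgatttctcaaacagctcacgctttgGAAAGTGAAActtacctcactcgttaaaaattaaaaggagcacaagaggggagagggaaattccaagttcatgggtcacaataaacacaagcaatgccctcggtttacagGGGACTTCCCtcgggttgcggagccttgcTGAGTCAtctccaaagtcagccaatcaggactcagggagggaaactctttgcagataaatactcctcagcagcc
Cxcl13: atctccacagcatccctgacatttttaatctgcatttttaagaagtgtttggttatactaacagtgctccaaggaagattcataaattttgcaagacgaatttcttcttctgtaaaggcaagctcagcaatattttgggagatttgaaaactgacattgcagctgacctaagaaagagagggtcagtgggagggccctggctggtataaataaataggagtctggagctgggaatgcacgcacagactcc
The motifs searched on both strands were the NF-kB motif, the AP-1 motif TGANTCA and the interferon response element. Cxcl1 held the NF-kB motif, whose last base lay 62 bases before the start. Cxcl10 held the NF-kB motif at 94 bases, the AP-1 motif at 68 and the interferon element at 204. No match to these motifs was found in the Cxcl13 window. Of all 32851 promoters in the table, 322 held the NF-kB motif (0.980%), 2217 the AP-1 motif (6.75%) and 978 the interferon element (2.98%). Of the 61 member symbols 45 were in the table, and 6 of these held the NF-kB motif (Ccr3, Ccr6, Cxcl1, Cxcl10, Cxcl2 and Cxcl3), 6 the AP-1 motif and 3 the interferon element. A match is a description of the sequence and does not show binding.

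Cxcl13, the B cell chemokine, was held by a handful of nuclei. Its fibroblast UMIs were 121 in the control library and 6 in the treated library, a log2 ratio of -3.96 (-5.54 to -2.90). But 94.2% of the control UMIs were in 5 nuclei, the most in a nucleus was 34, and only 12 and 6 nuclei had any, so by nuclei the ratio was -0.61 (-2.37 to 0.86). Of these few nuclei, 75.0% and 66.7% also had a UMI of an MP marker, against 38.1% and 40.4% of the other fibroblasts. Whether these nuclei were fibroblasts throughout was not tested. Cxcl10 was similar, with 34 UMIs in 13 nuclei and 8 in 7.

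Other stromal members were somewhat higher in treated fibroblasts. Cxcl14 had 503 and 591 UMIs, for a log2 ratio of 0.50 (0.32 to 0.67), and in the Pi16-type cluster it went from 152 to 273 CPM. Ackr3 had 1169 and 1244 UMIs, a ratio of 0.36 (0.24 to 0.47), which was 0.17 at the same mix of clusters in both libraries. The Pi16-type cluster made up 742 of 2477 control and 743 of 1970 treated fibroblasts. Ackr4 had 165 and 190 UMIs, a ratio of 0.47 (0.16 to 0.78). Its ratio was 0.78 (0.34 to 1.24) in the Pi16-type cluster and 0.08 (-0.40 to 0.54) in the largest cluster. Cxcl5 (64 and 52 UMIs) and Ccl11 (131 and 110) had ratios of -0.03 and 0.02. Ccl6 was past 2-fold on 20 and 34 UMIs, but its fibroblast level was 1.51% and 1.89% of the MP level, where the MP markers stood at 1.91% and 1.50%, and it was read as background. A nucleus with 20 of the 25 Cxcl9 UMIs accounted for most of that gene in treated fibroblasts.

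In ECs, Ccl2 and Cxcl12 were lower and Cx3cr1 was higher. Of the 14 EC members with at least 50 UMIs it was the only one at least 2-fold higher, and with at most 5% mitochondrial UMIs per nucleus its log2 ratio was 0.95, under 2-fold. Cx3cr1, the fractalkine receptor of monocytes and macrophages, had 28 UMIs in 26 of 2806 control ECs and 81 in 64 of 2508 treated ECs. The level was 9.44 (6.27 to 13.6) and 28.1 (22.3 to 34.9) CPM, a log2 ratio of 1.56 (0.94 to 2.25). The share of ECs with a UMI was 0.927% and 2.55%, and after thinning 0.606% and 1.28%. The higher level was found in the endocardial-like cluster, with 3 UMIs in 3 nuclei and 31 in 26, a ratio of 2.62 (1.13 to 5.17), and in the cluster led by Tmem100, with 6 and 24 UMIs. In fibroblasts Cx3cr1 was also higher, with 22 UMIs in 18 nuclei and 48 in 37, a ratio of 1.37 (0.64 to 2.19). Cardiomyocytes, which should lack the gene, had 21 and 17 Cx3cr1 UMIs, or 8.65 and 8.39 CPM. By this measure the control EC level, which was close to that of cardiomyocytes, was read as background, and the treated EC level was above it. The cardiomyocyte level was itself 6.56% and 4.54% of the MP level, where the 6 MP markers stood at 2.36% and 2.17%. The share of cardiomyocytes with a UMI was 1.56% and 1.56%, and 0.468% and 0.276% after thinning, at median depths of 1405 and 1439 UMIs against 898 and 949 in ECs.

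The Cx3cr1 UMIs of ECs stood at 7.16% and 15.2% of the MP level in ECs, whereas the 6 MP markers stood at 2.00% and 1.60%. Of the ECs with Cx3cr1, 42.3% and 50% had a UMI of any of 20 MP markers, against 42.4% and 48.5% of the other ECs. The sum of the 20 MP markers in ECs went from 797 to 916 CPM. The annotation gives Cx3cr1 a span of 168 kb on the minus strand (chr9:119901616-120069879), which contains Gorasp1, Csrnp1 and Xirp1 on the same strand. Each of these is listed at 0 in both libraries, although Xirp1 is a gene of heart muscle. On the opposite strand the span overlaps Wdr48, which had 1134 UMIs. Counts do not tell where in the span the Cx3cr1 reads fell, and the part of other transcripts in them was not tested.

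Ccl2 in ECs had 161 UMIs in 56 control nuclei and 71 in 25 treated nuclei. The log2 ratio was -1.14 (-1.57 to -0.73) by UMIs and -0.99 (-1.74 to -0.30) by nuclei, and it was -1.72 in the lymphatic-like cluster, -1.37 in the Tmem100 cluster and -0.65 in the cluster led by Hapln1. Its EC level was 31.3% and 14.5% of the fibroblast level, and the fibroblast markers stood at 11.6% and 13.9%, so the treated value was close to background. Cxcl12 in ECs had 758 and 530 UMIs, a ratio of -0.48 (-0.64 to -0.31). At the same mix of EC clusters the ratio was -0.12, and the capillary-like cluster was 987 of 2806 control ECs and 691 of 2508 treated ECs. Within that cluster it was -0.18 (-0.37 to 0.00). In the cluster led by Hapln1 it went the other way, from 16 to 44 UMIs, a ratio of 1.58 (0.75 to 2.53).

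Of the other EC members with at least 50 UMIs, Cxcl16 and Ackr4 were higher in the type as a whole, by intervals without 0. The rest had intervals that included 0. Ackr3 had 1067 and 1040 UMIs, for a log2 ratio of 0.00 (-0.12 to 0.13), Ackr2 70 and 68, and Cx3cl1 145 and 130. Ackr3 differed between clusters, at 0.43 (0.10 to 0.76) in the capillary-like and -0.31 (-0.59 to -0.02) in the endocardial-like cluster. In the other EC clusters its intervals included 0. Cxcl16 had 258 and 314 UMIs, a ratio of 0.32 (0.08 to 0.57). Its intervals included 0 in the capillary-like cluster, at 0.25 (-0.38 to 0.86), and in the Tmem100 cluster, at 0.04 (-0.37 to 0.45). They also included 0 in the endocardial-like cluster, at 0.43 (-0.02 to 0.90), and in the Hapln1 cluster, at -0.19 (-0.86 to 0.45). The endocardial-like cluster, at 121 and 164 CPM, was 401 of 2806 control ECs and 552 of 2508 treated ECs. The part of the cluster mix in the pooled ratio is not given here. Ackr4 had 66 and 103 UMIs, a ratio of 0.68 (0.22 to 1.15), and in the endocardial-like cluster it went from 37.8 to 71.8 CPM. In the small arterial-like cluster of 87 and 74 nuclei, Cx3cl1 had 23 UMIs in 15 nuclei and 3 in 3, a ratio of -2.73 (-5.30 to -1.19). Ccl7, Cxcl10 and Ccl25 had ratios of -0.60, -0.45 and -0.36, and Ccl6, Cxcl14 and Cxcl9 of 0.40, 0.46 and 0.07. In the capillary-like cluster Cxcl9 had 33 and 39 UMIs, a ratio of 0.76 (0.06 to 1.48). Cxcr4 had 9 UMIs in 9 nuclei and 22 in 12 there, a ratio of 1.77 (0.64 to 3.12). Ccl4 went from 1 to 19 UMIs in ECs, and 14 of the 19 were in 1 nucleus.

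**Figure D4:**
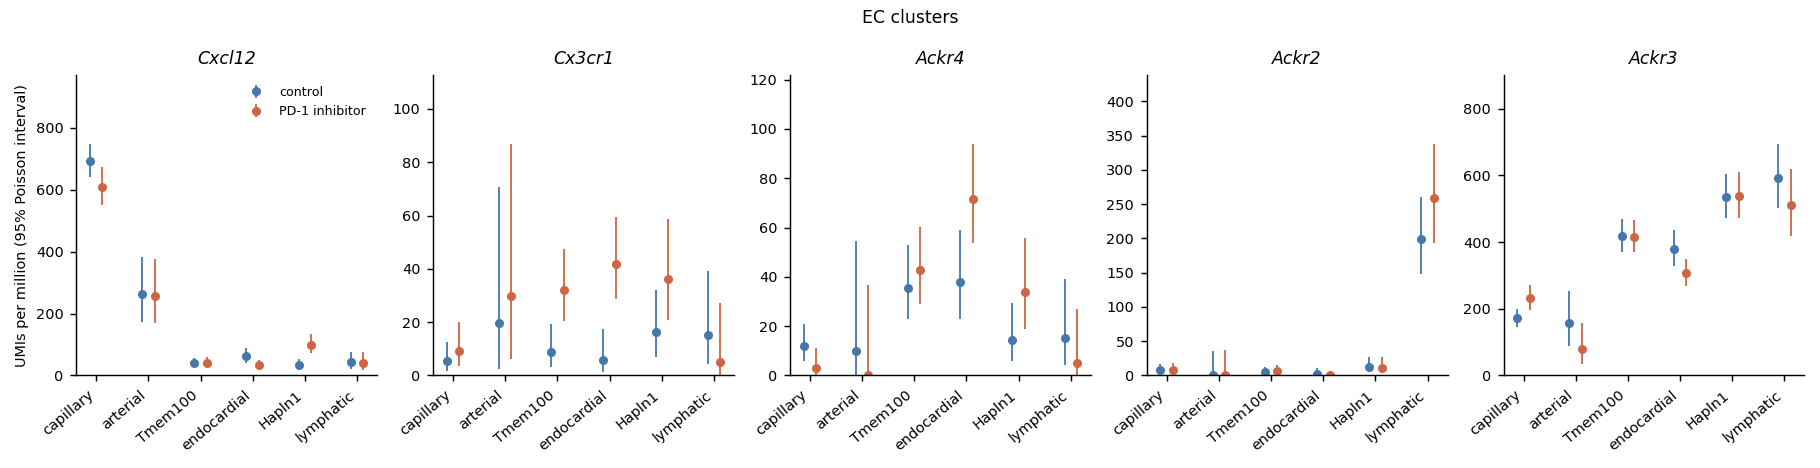
Level of Cxcl12, Cx3cr1, Ackr4, Ackr2 and Ackr3 in 6 EC clusters of the control and treated libraries, in UMIs per 1000000 with 95% Poisson intervals. Tmem100 and Hapln1 stand for clusters given by a leading gene. Cxcl12 is highest in the capillary-like cluster and Ackr2 in the lymphatic-like cluster, and the intervals of Cx3cr1 do not overlap between libraries in the Tmem100 and endocardial-like clusters.

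In MPs, Ccl6, Ccl24, Ccr1 and Ccl12 were higher in the treated library, and Cxcl10 and Cxcl12 were lower by UMIs. Ccl6 had 591 UMIs in 285 control nuclei and 727 in 301 treated nuclei, or 443 (408 to 480) and 722 (671 to 777) CPM, a log2 ratio of 0.71 (0.55 to 0.87). The share of MPs with Ccl6 was 22.7% and 34.1%, against 0.927% and 1.12% of ECs at similar depth. Ccl24 (eotaxin-2, a product of alternatively activated macrophages) had 43 UMIs in 30 nuclei and 81 in 50, a ratio of 1.31 (0.77 to 1.89). Ccr1, a receptor of Ccl3 and Ccl5, had 80 UMIs in 51 nuclei and 106 in 71, a ratio of 0.81 (0.38 to 1.25). All 3 were above the marker ratio of 0.47 by their point values. Within clusters, the Ccl6 ratio was 0.39 (0.07 to 0.69) in the Cd72 cluster, below 0.47. It was 0.54 (0.32 to 0.75) in the macrophage-like and 0.68 (0.18 to 1.19) in the dendritic cell-like cluster, above 0.47. These intervals all include 0.47, as does that of Ccr1 in the whole type.

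The ratios of Ccl24 and Ccr1 were larger in the macrophage-like cluster, and the difference between clusters was not tested. There Ccl24 went from 60.7 to 166 CPM, a log2 ratio of 1.43 (0.76 to 2.19), and in the larger Cd72 cluster it had 17 and 9 UMIs. Ccr1 went from 63.2 to 154 CPM in the macrophage-like cluster, a ratio of 1.27 (0.59 to 2.01), and had 42 and 36 UMIs in the Cd72 cluster, a ratio of 0.46 (-0.23 to 1.13). The macrophage-like cluster was 346 of 1255 control MPs and 343 of 883 treated MPs, so a larger share of the type also entered the pooled values. At the same mix of clusters the ratio of Ccl6 was 0.54 and that of Ccl24 1.06.

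Ccl12, a mouse ligand of Ccr2, had 277 and 361 UMIs in MPs, a log2 ratio of 0.79 (0.56 to 1.02), but by nuclei it was 0.37 (-0.04 to 0.77) with 110 and 100. It was higher in both large clusters, from 294 to 504 CPM in the Cd72 cluster and from 137 to 320 in the macrophage-like cluster. Ccr2 had 381 and 409 UMIs, a ratio of 0.51 (0.30 to 0.71), and Ccl9 and Cx3cr1 had ratios of 0.50 and 0.49, close to the 0.47 of the MP markers. Ccl8 had 73 and 92 UMIs and a ratio of 0.74 (0.28 to 1.20). Ccl2 and Ccl7 differed little in MPs, with ratios of 0.08 (-0.24 to 0.40) and 0.26 (-0.11 to 0.63), and Cxcl16 was at -0.03 (-0.29 to 0.22).

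**Figure D5:**
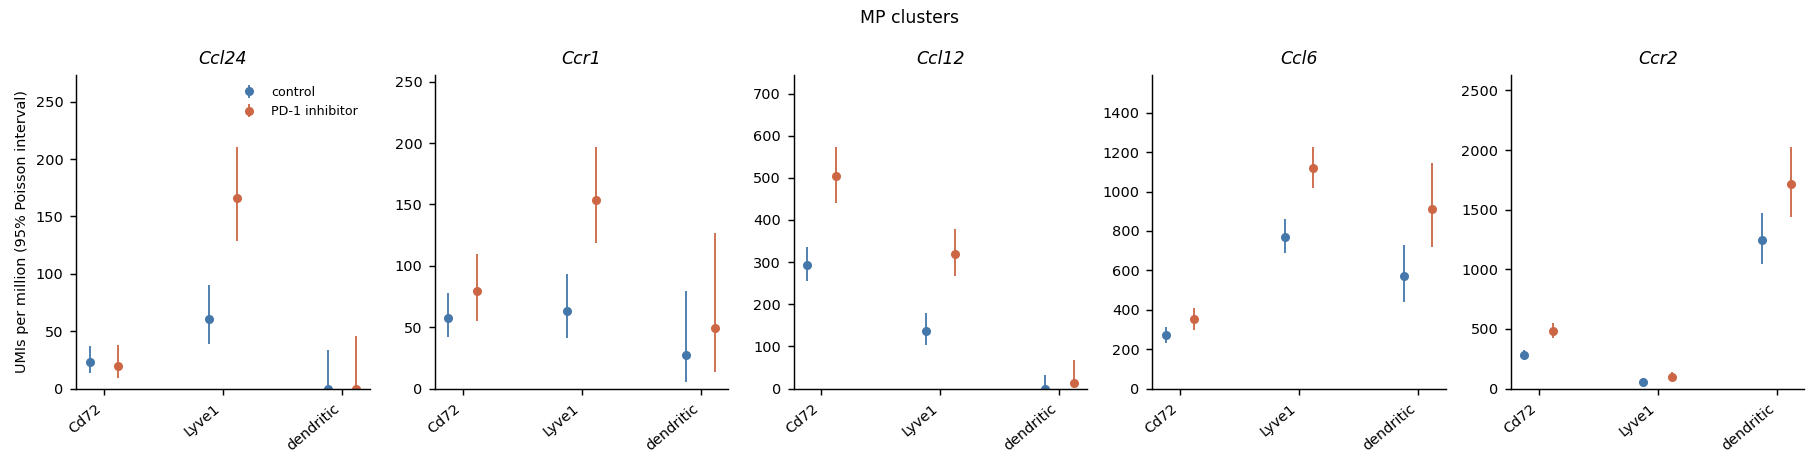
Level of Ccl24, Ccr1, Ccl12, Ccl6 and Ccr2 in the 3 largest MP clusters (the cluster led by Cd72, the macrophage-like cluster with Lyve1, and the dendritic cell-like cluster) of the control and treated libraries, in UMIs per 1000000 with 95% Poisson intervals. All of these genes are higher in the treated library in the Lyve1 cluster, and Ccr2 is highest in the dendritic cell-like cluster.

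Cxcl10, Cxcl9, Cxcl2, Ccl3 and Cxcl13 were counted in few MPs. Cxcl10 had 47 UMIs in 11 control nuclei and 8 in 6 treated nuclei, a log2 ratio of -2.07 (-3.44 to -1.05) by UMIs and -0.32 (-2.09 to 1.19) by nuclei. Cxcl9 had 35 and 10 UMIs, Cxcl2 28 and 7, and Ccl3 20 and 3, with UMI ratios of -1.35, -1.52 and -2.14 whose nuclei intervals included 0. Cxcl13 went the other way, from 36 to 86 UMIs, but in 19 and 14 nuclei, and 83.7% of the treated UMIs were in 5 nuclei. Cxcl12 had 44 UMIs in 40 MPs and 15 in 14, a ratio of -1.11 (-2.10 to -0.27), at 12.9% and 8.12% of its EC level. EC markers in MPs were at 6.31% and 5.66% of theirs.

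In T cells, Ccl5 and Cxcr6 were higher in the treated library. Ccl5 had 261 UMIs in 103 of 239 control nuclei and 472 in 116 of 193 treated nuclei. This was 1098 and 2387 CPM, a log2 ratio of 1.12 (0.90 to 1.34) by UMIs and 0.48 (0.08 to 0.88) by nuclei. The share of T cells with Ccl5 was 43.1% (36.7 to 49.6) and 60.1% (52.8 to 67.1), and 33.5% and 51.8% after thinning, against 0.535% and 0.837% of ECs. Cxcr6, a receptor of tissue-resident T cells, had 76 UMIs in 53 nuclei and 142 in 68, a ratio of 1.16 (0.76 to 1.59) by UMIs and 0.66 (0.13 to 1.21) by nuclei, so neither gene was past 2-fold by nuclei. Both genes were higher in the T cell-like and in the NK-like cluster: Ccl5 went from 1032 to 2179 CPM and from 1665 to 3410, and Cxcr6 from 298 to 618 and from 225 to 703. The NK-like cluster held 40 nuclei of each library and was led by genes of dividing cells.

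Xcl1, Cxcr3 and Ccr2 were higher by UMIs in T cells, with wider intervals. Xcl1 had 44 UMIs in 19 nuclei and 73 in 23, a log2 ratio of 0.99 (0.44 to 1.57) by UMIs and 0.58 (-0.36 to 1.54) by nuclei. It went from 160 to 397 CPM in the T cell-like cluster, with a log2 interval of 0.64 to 2.01, and its ratio was 0.05 (-1.03 to 1.16) in the NK-like cluster, which had 15 and 17 UMIs. Cxcr3, the receptor of Cxcl9 and Cxcl10, had 42 UMIs in 20 nuclei and 58 in 40, a ratio of 0.73 (0.13 to 1.34) by UMIs and 1.29 (0.50 to 2.16) by nuclei. Ccr2 had 88 and 115 UMIs, a ratio of 0.65 (0.24 to 1.07). Ccr2 in T cells exceeded its level in MPs, whereas the 6 MP markers were at 4.75% and 3.44% of theirs. Ccl4 had 91 and 51 UMIs, a ratio of -0.56 (-1.09 to -0.06), but 1 control nucleus held 51 of the 91, and without the nucleus with the most UMIs in each library the ratio was 0.23. Ccl1 had 1 UMI in the control library and 17 in 3 nuclei of the treated library.

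In the other types little could be compared. In B cells, Cxcr5 had 58 and 19 UMIs in 176 and 80 nuclei, a log2 ratio of -0.17 (-1.03 to 0.57), and Ccr6 had 33 and 9. Ccr7 had 21 and 17 UMIs there, a ratio of 1.11 (0.09 to 2.10). In mural cells, Cxcl12 had 102 and 99 UMIs, a ratio of 0.48 (0.07 to 0.89). In cardiomyocytes, Ackr3 had 272 and 271 UMIs, a ratio of 0.26 (0.01 to 0.50), and Cxcl12 109 and 131, a ratio of 0.53 (0.15 to 0.91), and by nuclei both were near 0, at 0.04 and 0.16. Mesothelial Ackr3 had a ratio of -0.04 (-0.38 to 0.31). Mesothelial Cxcl16 had 51 UMIs in 31 nuclei and 89 in 59, a ratio of 0.40 (-0.10 to 0.94) by UMIs and 0.97 (0.33 to 1.66) by nuclei, at medians of 1302 and 1724 UMIs.

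Genes around the chemokine system were counted in the same way. Of the genes of chemokine receptor signalling with at least 50 UMIs, 0 of 25 in ECs, 0 of 24 in fibroblasts and 0 of 33 in MPs were past 2-fold. In T cells 1 of 21 was higher (Rac2, a GTPase of migrating leukocytes, 48 and 81 UMIs) and 1 lower (Rap1a, a GTPase of integrin activation, 100 and 39). For leukocyte adhesion genes the count was 0 of 11 in ECs, 0 of 9 in fibroblasts, 0 of 11 in MPs and 0 of 7 in T cells. For genes of heparan sulfate, which holds chemokines at the cell surface, and of chemokine trimming, 1 of 13 in MPs was higher (Mmp2, a protease, 21 and 33 UMIs) and 1 of 2 in T cells was lower (Dpp4, which trims chemokines, 51 and 14).

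Genes of the pathways known to switch on inflammatory chemokines differed more between lists. Of the immediate early genes, which are induced within minutes of a stimulus or of tissue handling, 8 of 14 were at least 2-fold lower in ECs, 8 of 13 in fibroblasts and 4 of 12 in MPs, with medians of -1.29, -1.11 and -0.70, and 0 of 2 in T cells. In fibroblasts, Fos went from 179 to 12.9 CPM and Egr1 from 344 to 80.1. Of the NF-kB response genes 1 of 12 in MPs was lower (Il1b, an inflammatory cytokine, from 118 to 15.9 CPM), and 0 of 11 in ECs, 0 of 10 in fibroblasts and 0 of 4 in T cells were past 2-fold. The interferon response genes had 0 of 24, 0 of 23 and 0 of 22 past 2-fold in ECs, fibroblasts and MPs, and 1 of 6 in T cells was higher (Psmb8, an immunoproteasome subunit, 52 and 98 UMIs). Among the ligands, Cxcl1 and Ccl7 in fibroblasts, Ccl2 in ECs and, by UMIs, Cxcl10 in MPs were lower. Ccl2 in fibroblasts (-0.03) and in MPs (0.08) and Ccl7 in MPs (0.26) had intervals that included 0. In MPs, Ccl6, Ccl8, Ccl12 and Ccl24 were higher. Immediate early genes also had negative medians in cardiomyocytes (-0.60), mural cells (-0.52) and mesothelial cells (-0.95). A ligand lower in any of these types would thus match them, and nothing is read from the match. The part of the immediate early genes in the chemokine values was not tested. With 1 library per group, tissue handling and treatment cannot be told apart.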

How the data were processed

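The authors deposited whole-number UMI counts per gene and barcode, not normalized, made with the GEXSCOPE single-nucleus kit. The submitters' processing notes name GRCm38 and mm10, and the aligner, counter, annotation and barcode calling are not given in the sources used here. The deposited counts summed to 13177525 (control) and 10875248 (PD-1 inhibitor), and no barcode had fewer than 500 UMIs. Positions of genes were read from the GENCODE vM21 annotation (GRCm38), which matched 32522 of the 32589 identifiers.

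Nuclei with under 200 genes or over 20% mitochondrial UMIs (83 and 15 nuclei) and Scrublet doublets (592 and 308, or 5.85% and 3.87%) were removed. In scanpy 1.11.5, 2000 variable genes without the members, scaled, gave 30 principal components, and 15 neighbours were clustered by leidenalg 0.10.2 at resolution 1. A marker counted as detected with a UMI in at least 5% of nuclei and over 2 times the CPM of the rest, and a name needed at least 3 detected markers. MPs and T cells were clustered again with 1000 variable genes at resolution 0.5. Scaling, these settings for subclusters and the minimum of 50 nuclei for ranking types were set after clusters had been seen, and the 6 markers per type used for background after values had been seen. Log2 ratios have 0.5 UMI added to each sum. Intervals at 95% are Poisson for CPM, Clopper-Pearson for shares and conditional binomial for ratios, computed with scipy 1.17.1, and cover counting error only. The ratio step was tested on simulated data. Named are all members with at least 50 UMIs, those past 2-fold with at least 20 UMIs in a type, the pairs of ligands and receptors, and the rest by their total. The members, markers and lists were chosen with earlier results of these data known. Alternatives were doublets kept, at least 500 genes, at most 5% mitochondrial UMIs, resolutions of 0.5 and 2, members allowed among the variable genes, another total, centring, thinning to 500 UMIs, a mean over nuclei, the same mix of clusters and a minimum of 20 UMIs. Leaving out the nucleus with the most UMIs, counting nuclei and the same mix of depths (5 bins) were added after seeing the data. Counts over the members include 1 member that is not reported here.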

Additional observations from a re-analysis of the deposited data

How the results depend on the processing

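Recomputed under 14 alternatives, 72 ratios gave 1007 values, of which 969 stayed within the counting interval with the same sign, 35 left it and 3 changed sign. The sign changes were Cxcl16 in cardiomyocytes with at most 5% mitochondrial UMIs (-0.21) and Ccl4 in T cells without the nucleus with the most UMIs (0.23) and by nuclei (0.51), and the cause was not tested. Counting nuclei in place of UMIs left 23 of the 36 ratios outside counting error. Members at least 2-fold higher numbered 0 in ECs with at most 5% mitochondrial UMIs (Cx3cr1 at 0.95) and 2 with a minimum of 20 UMIs, against 1. In fibroblasts they numbered 1 with at least 500 genes, with at most 5% mitochondrial UMIs, at the same mix of clusters and without the top nucleus, 0 after thinning to 500 UMIs, and 4 with a minimum of 20 UMIs, against 2. They numbered 1 by nuclei in MPs, against 2. In T cells they also numbered 1 by nuclei and by the mean over nuclei, against 2, but neither was Ccl5 (0.48 and 0.97) or Cxcr6 (0.66 and 0.96): the one past 2-fold was Cxcr3 by nuclei (1.29) and Xcl1 by the mean (1.14). Members at least 2-fold lower numbered 0 in ECs at resolution 2 and by nuclei, against 1. In fibroblasts they numbered 1 with at most 5% mitochondrial UMIs, after thinning and by nuclei, against 2. In MPs they numbered 1 with doublets kept, with at least 500 genes, at resolution 2 and without the top nucleus, 0 after thinning and by nuclei, and 5 with a minimum of 20 UMIs, against 2. The share of all genes is not given for these alternatives or beside the 23 of 36 ratios. The counts are therefore not read as a result about the members. No paired analysis was possible because each condition is 1 library. Depth is a further limit beside the lack of replicates: members with few UMIs in a type have wide intervals, and thinning leaves fewer members with 50 UMIs.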

Other observations

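Chemokine-related genes outside the naming rule were read in the same way. Pf4 (platelet factor 4, a CXC chemokine also made by resident macrophages) had 623 UMIs in control MPs and 924 in PD-1 inhibitor MPs, or 467 and 918 CPM, a log2 ratio of 0.98 (0.83 to 1.13). Cd74, the invariant chain of MHC class II and a receptor of Mif, had 8486 and 9902 UMIs in MPs, a ratio of 0.63 (0.59 to 0.67). Cd74 was also among the 20 MP markers whose sum had a ratio of 0.47, so it entered that value. Ccrl2, an atypical receptor that binds chemerin, had 63 and 99 UMIs in ECs, a ratio of 0.69 (0.22 to 1.17). Cklf had 7 and 28 UMIs in T cells. None of these had a replicate.

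Over 23 clusters and 11455 genes with at least 200 UMIs, the genes whose log2 levels were most like those of a member were named as a description, with clusters sharing the 2 libraries. For Cxcl12 they were Meox2 (Pearson r of 0.88), Zfp979 (0.86) and Tcf15 (0.84), of which Meox2 and Tcf15 are transcription factors of heart capillaries. For Ccl6 they were Ptafr, Lrrc25 and Lyz2 (0.97 each). For Cxcl14 they were Omd (0.91), Ms4a4d (0.90) and Msc (0.89). For Ackr3, Ccl2 and Cxcl16 the closest were Atp9a (0.85), Nova1 (0.78) and B4galt6 (0.88).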
